A study of Mus musculus with 8 samples.

Results

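The BMP and Nodal pathway genes described here are 10 of the 43309 genes in the count table: *Bmp4*, *Id1*, *Id2*, *Id3*, *Smad6*, *Smad7*, *Nodal*, *Tdgf1*, *Lefty1* and *Lefty2*. They were chosen by name, with earlier results of these data known. Their Ensembl identifiers were matched to gene symbols without the version number. All 10 were among the 16816 genes tested, with between 13 and 31157 counted fragments per library. The 8 libraries came from mouse embryonic stem (ES) cells of the J1 line (129SV strain), grown on gelatin without feeder cells in a medium with serum. They form 4 groups of 2: *Zbtb24* wild type (2lox/+, WT) and *Zbtb24* knockout (1lox/1lox, KO), each prepared from 1000 cells (about 10 ng of RNA, 10 PCR cycles) or from 100 cells (about 1 ng, 18 cycles). The replicates are clones, but it is not stated which clone gave which library. Every cDNA library was made with the SMARTer Ultra Low kit directly on lysed cells, so cell number and PCR cycle number cannot be told apart.

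BMP4 and NODAL are secreted signals of the TGF-beta family. Both act through pairs of type I and type II receptor kinases that phosphorylate SMAD proteins: SMAD1, SMAD5 and SMAD9 for BMPs, and SMAD2 and SMAD3 for NODAL, each joined by SMAD4 in the nucleus. In mouse ES cells in serum, BMP signalling is known for switching on the *Id* genes, whose products block differentiation-promoting helix-loop-helix factors. NODAL needs the co-receptor CRIPTO, encoded by *Tdgf1*, and with the DNA-binding partner FOXH1 it switches on *Lefty1*, *Lefty2* and *Nodal* itself. SMAD6 and SMAD7 inhibit the pathways inside the cell, and the LEFTY proteins block NODAL outside it.

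The libraries held between 9666985 and 16686525 counted fragments. Replicates labelled WT at 100 cells differed most, with a mean chi-square per degree of freedom of 17.6 between replicates against 1.99 to 3.28 in the other groups. *Zbtb24*, the targeted gene, was higher in the libraries labelled KO, at 40.9 and 37.7 cpm (counts per 1000000, with TMM scaling) against 14.1 and 16.4 cpm in those labelled WT at 1000 cells, and at 39.7 and 37.3 cpm against 19.5 and 20.3 cpm at 100 cells. Counts over all exons do not check a deleted segment, and each direction below is that of the library labels. All 8 pluripotency markers were present in every library, but their levels differed by labelled genotype. They summed to 1798.9 to 1881.2 cpm labelled WT and 2334.1 to 2365.3 cpm labelled KO at 1000 cells. At 100 cells the sums were 1787.6 to 1940.4 cpm against 2118.4 to 2154.2 cpm. In the libraries labelled KO, 5 of the 8 were higher and 2 lower at 1000 cells, and 4 higher and 1 lower at 100 cells. Of all tested genes, 20.9% were higher and 20.6% lower at 1000 cells, and 17.6% and 16.6% at 100 cells. Of 10 oligodendrocyte and astrocyte markers, all 10 were higher at 100 cells in the libraries labelled KO, where their summed level was 438 to 440 cpm against 89.9 to 181 cpm in the other groups. At 1000 cells the sum was 159 to 181 cpm labelled KO and 89.9 to 110 cpm labelled WT. There 2 of the 10 were higher and 0 lower, beside 20.9% and 20.6% of all tested genes. At 100 cells in the libraries labelled KO the single markers stood out. *Mbp* was at 104 ± 2.04 cpm (SD, n = 2) there and at 1.35 ± 0.195 cpm in those labelled WT, and *Aqp4* was at 0 counts in both groups of 1000 cells. Of 9 neuronal markers, the libraries labelled KO at 100 cells had 6 at a higher and 1 at a lower level than those labelled WT, among them *Snap25* at 80.4 ± 4.59 cpm against 1.91 ± 0.182 cpm. Their summed level, most of it from *Stmn2* and *Tubb3*, which every library expressed, was 776 to 799 cpm in these libraries and 595 to 797 cpm in the others. The part of these transcripts in the results at 100 cells was not tested, and the comparison at 1000 cells does not use these libraries.

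Measured against the libraries labelled WT, those labelled KO had lower *Bmp4*, *Nodal*, *Id1* and *Id3* and higher *Lefty1* at both inputs. *Lefty1* had log2 ratios of 0.53 at 1000 cells and 1.01 at 100 cells. The other genes of its chromosome that averaged 10 cpm or more had medians of 0.55 and 0.45. At 1000 cells 5 of the 10 genes were lower and 2 were higher at an adjusted p of at most 0.05 (edgeR quasi-likelihood test, Benjamini-Hochberg adjustment over all tested genes), where 20.6% of all tested genes were lower and 20.9% higher. At 100 cells 5 were lower and 1 was higher, against 16.6% and 17.6% of all tested genes. Of all tested genes, 9.24% were lower and 7.52% higher at both inputs, which was the case for 4 and 1 of the 10 genes. The median log2 ratio of the 10 genes was -0.32 at 1000 cells and -0.35 at 100 cells, beside a median of -0.00 over all tested genes at each input.

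**Figure D1:**
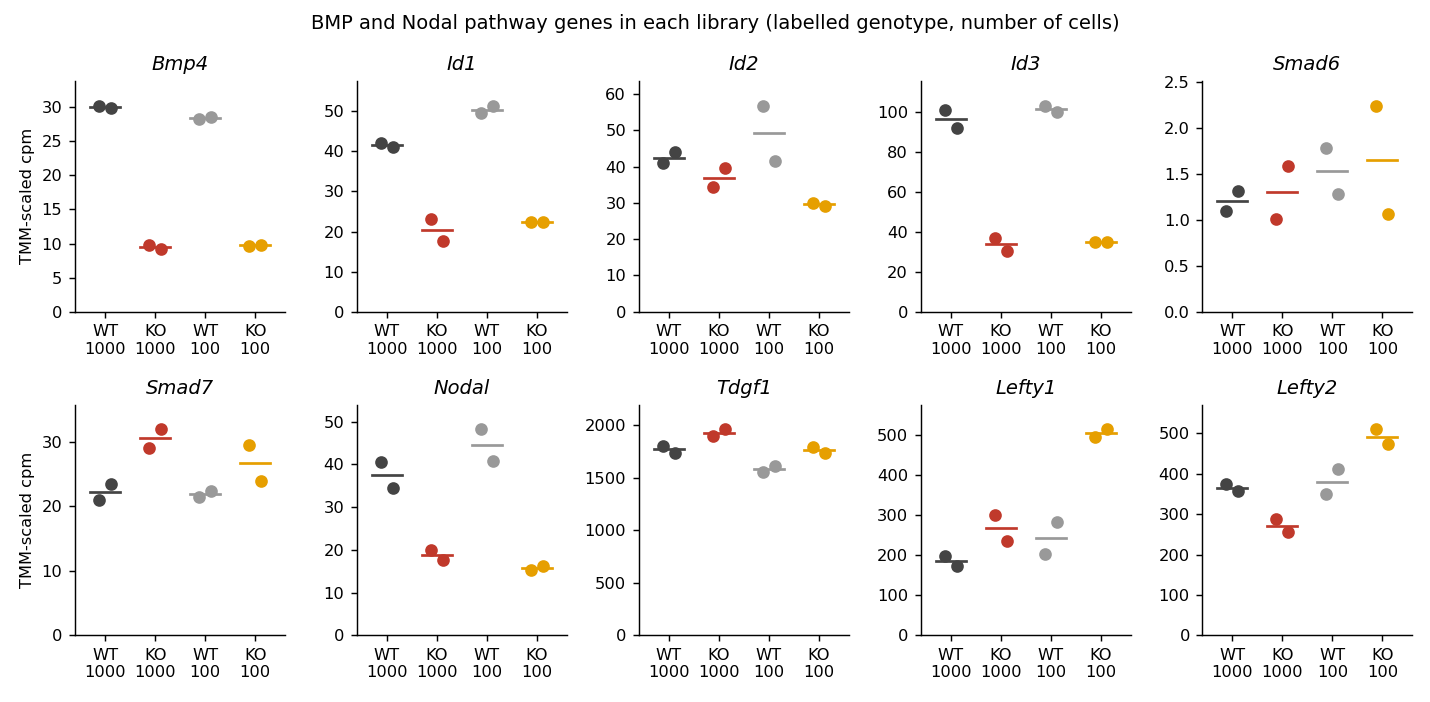
Level of each of the 10 genes (TMM-scaled cpm, vertical axes from 0) in the 8 libraries, by labelled genotype and number of cells on the horizontal axis; points are libraries and lines are means of 2. The points of *Bmp4*, *Nodal*, *Id1*, *Id2* and *Id3* labelled KO lie below all those labelled WT, those of *Smad7* lie above them, and *Lefty2* changes sides between the inputs. The share of all tested genes whose libraries lie apart in this way was not counted.

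*Bmp4*, the BMP ligand with the highest mean level among those listed, lies on chromosome 14 (46383520-46390669, minus strand, mm10). At 1000 cells it was at 30.2 and 29.9 cpm in the libraries labelled WT and at 9.71 and 9.21 cpm in those labelled KO. At 100 cells the values were 28.2 and 28.5 cpm against 9.7 and 9.82 cpm. Each group of 2 was tight and the genotypes did not overlap. The share of all tested genes without overlap was not counted, for this gene or for those below. The level fell to 31.4% of that labelled WT at 1000 cells (log2 ratio -1.67 ± 0.12 SE, adjusted p = 5.57e-12, edgeR) and to 34.4% at 100 cells (-1.58 ± 0.15, adjusted p = 0.000152). No gene among the 297 others of chromosome 14 that averaged 10 cpm or more had a lower ratio at either input. An antisense gene, Gm15217, overlaps 89 bases of the *Bmp4* exons, and had 0 to 4 counts per library. Fragments that matched both genes were discarded.

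*Nodal* (chromosome 10, 61417972-61425338, plus strand) encodes the ligand of the second pathway. It was at 40.6 and 34.4 cpm in the libraries labelled WT and at 20.1 and 17.6 cpm in those labelled KO at 1000 cells. From 100 cells it was at 48.2 and 40.7 cpm against 15.4 and 16.3 cpm. The lowest library labelled WT was thus above the highest labelled KO. *Nodal* fell by 1.00 ± 0.11 on the log2 scale at 1000 cells (edgeR adjusted p = 2.08e-08) and by 1.53 ± 0.15 at 100 cells (adjusted p = 0.000162). The difference between these ratios, -0.49 ± 0.19, did not pass the threshold (interaction adjusted p = 0.0929), although it did without the second library labelled WT at 100 cells (adjusted p = 0.00572).

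*Tdgf1*, which encodes the NODAL co-receptor CRIPTO (chromosome 9, 110939603-110946158, minus strand), was by far the most abundant of the 10. Its level was 1803.4 and 1735.7 cpm in the libraries labelled WT and 1890.3 and 1957.1 cpm in those labelled KO at 1000 cells, and 1549.1 and 1612.0 cpm against 1787.6 and 1736.4 cpm at 100 cells. The libraries labelled KO were the higher ones at each input, by 0.12 ± 0.05 and 0.11 ± 0.11 on the log2 scale. Neither ratio passed the threshold (edgeR adjusted p = 0.0596 and 0.449). The first did with limma-voom (adjusted p = 0.0232), with the replicate number as a block (0.0361) and without the first library labelled KO at 1000 cells (0.0200), and the second without the second library labelled WT at 100 cells (0.0210). A pseudogene, Tdgf1-ps1, shares 8.86% of the 50-base windows of the *Tdgf1* transcripts, and fragments that matched both were discarded.

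The start regions of these 3 genes are shown because both ligands fell and the co-receptor serves one of them. The RefSeq promoter table (GRCm38.p6) held 6 of the 10 genes, among which the 250 bases before the start of *Bmp4* (chr14:46390670-46390919, minus strand), *Nodal* (chr10:61417722-61417971, plus strand) and *Tdgf1* (chr9:110946159-110946408, minus strand) read as follows, 5′ to 3′, with matches to the motifs named below in capitals.
Bmp4: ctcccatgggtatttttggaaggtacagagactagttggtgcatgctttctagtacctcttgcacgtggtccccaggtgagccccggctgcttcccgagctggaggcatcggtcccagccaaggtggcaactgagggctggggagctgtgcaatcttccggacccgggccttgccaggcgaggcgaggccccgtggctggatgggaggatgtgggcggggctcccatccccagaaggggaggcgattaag
Nodal: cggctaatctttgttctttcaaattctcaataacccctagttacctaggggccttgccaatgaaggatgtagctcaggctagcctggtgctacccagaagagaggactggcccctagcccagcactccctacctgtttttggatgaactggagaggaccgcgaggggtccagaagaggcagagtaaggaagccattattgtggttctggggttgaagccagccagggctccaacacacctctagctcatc
Tdgf1: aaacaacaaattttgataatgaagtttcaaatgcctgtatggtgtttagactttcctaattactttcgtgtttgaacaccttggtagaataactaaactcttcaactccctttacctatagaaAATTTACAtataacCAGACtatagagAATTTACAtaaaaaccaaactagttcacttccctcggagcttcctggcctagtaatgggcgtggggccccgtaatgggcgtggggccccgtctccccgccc
Searched on both strands were CAGAC, a SMAD binding element, and GGCGCC, a GC-rich SMAD element. Searched as well were AATNNACA, a loose pattern for a FOXH1 element in which N is any base, and CAGGACCT, an element bound by ZBTB24. These strings occur, in this order, in 42.2%, 9.65%, 10.9% and 1.62% of 32536 mouse promoter windows of the same length. *Tdgf1* held 1 match to CAGAC, at bases 113 to 109 before the start, and 2 to AATNNACA, at bases 127 to 120 and 101 to 94. Both of the latter read AATTTACA, and whether FOXH1 binds this string was not tested. In the windows of *Bmp4*, *Nodal* and *Smad6* none of these letter strings was found. *Id3* held 2 matches to CAGAC, and *Id2* held 1 to GGCGCC. The windows of *Id2* and *Id3* lie inside longer GENCODE gene models and are not printed.

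The *Id* genes encode helix-loop-helix proteins without a DNA-binding region and are standard readouts of BMP signalling. *Id3* (chromosome 4, 136143497-136145755, plus strand) had 101 and 92.1 cpm in the libraries labelled WT and 36.9 and 30.5 cpm in those labelled KO at 1000 cells. At 100 cells it had 103 and 100 cpm against 35 and 35.1 cpm. The groups did not overlap, and the loss was nearly equal at both inputs, with log2 ratios of -1.52 ± 0.09 (edgeR adjusted p = 5.29e-14) and -1.58 ± 0.11 (adjusted p = 3.65e-05).

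*Id1* (chromosome 2, 152736251-152737410, plus strand) was at 42.1 and 41.0 cpm in the libraries labelled WT against 23.2 and 17.6 cpm at 1000 cells, and at 49.5 and 51.4 cpm against 22.5 and 22.4 cpm at 100 cells. It fell to 49.0% and 44.6% of the level labelled WT, without overlap. The log2 ratios were -1.03 ± 0.11 (edgeR adjusted p = 1.20e-08) and -1.21 ± 0.12 (adjusted p = 0.000216).

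*Id2* (chromosome 12, 25093799-25097140, minus strand) changed less. At 1000 cells it was at 41.0 and 44.0 cpm in the libraries labelled WT and at 34.3 and 39.5 cpm in those labelled KO, which did not overlap but did not pass the test (log2 ratio -0.20 ± 0.10, edgeR adjusted p = 0.0960). It did pass with the replicate number as a block (adjusted p = 0.0456), by library size alone (0.0157), when thinned (0.0397) and without the second library labelled KO at 1000 cells (0.0440). At 100 cells 56.8 and 41.7 cpm stood against 30.0 and 29.2 cpm, and *Id2* fell by 0.77 ± 0.16 (adjusted p = 0.00622). That call was lost without the second library labelled KO at 100 cells (adjusted p = 0.0522). The ratios at the 2 inputs differed by -0.53 ± 0.19, which did not pass the threshold (interaction adjusted p = 0.0745) but did without the second library labelled WT at 100 cells (adjusted p = 0.000119).

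Of the inhibitory SMADs, themselves targets of the pathways they restrain, *Smad7* did not fall with the *Id* genes, and *Smad6* had too few counts to tell. *Smad7* (chromosome 18, 75367529-75395935, plus strand) was at 20.9 and 23.4 cpm in the libraries labelled WT and at 29.1 and 31.9 cpm in those labelled KO at 1000 cells, and rose by 0.47 ± 0.11 on the log2 scale (edgeR adjusted p = 0.000799). At 100 cells 21.5 and 22.4 cpm stood against 29.5 and 23.9 cpm. The libraries labelled KO were again the higher ones, but the ratio of 0.24 ± 0.15 did not pass the test (adjusted p = 0.252). *Smad6* (chromosome 9, 63953076-64022059, minus strand) was counted in only 13 to 30 fragments per library. It was at 1.10 and 1.31 cpm labelled WT against 1.01 and 1.59 cpm labelled KO at 1000 cells, and at 1.78 and 1.28 against 2.24 and 1.06 cpm at 100 cells, so the groups overlapped. With log2 ratios of 0.14 ± 0.42 and 0.08 ± 0.48 (edgeR adjusted p = 0.828 and 0.916), no difference in *Smad6* was detectable at this depth.

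**Figure D2:**
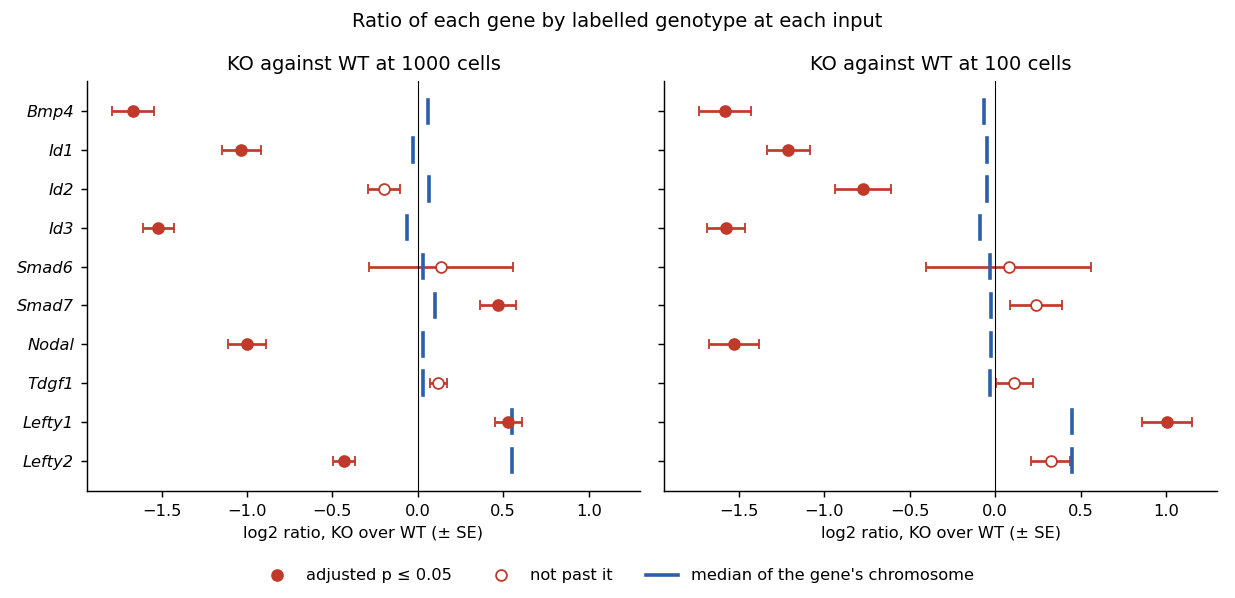
Log2 ratio of libraries labelled KO over those labelled WT for the 10 genes (points, with bars of 1 SE from the edgeR fit of 4 libraries each) at 1000 cells (left) and 100 cells (right). Filled points passed an adjusted p of 0.05, and blue bars mark the median ratio of the chromosome that holds the gene, which lies at 0.55 and 0.45 for the *Lefty* genes and between -0.09 and 0.10 for the others.

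*Lefty1* and *Lefty2* lie next to each other on chromosome 1 (180935022-180938400 and 180893108-180899103, both on the plus strand), and their ratios had opposite signs at 1000 cells and the same sign at 100 cells. *Lefty1* was at 197 and 174 cpm in the libraries labelled WT and at 301 and 236 cpm in those labelled KO at 1000 cells, and at 202 and 283 against 494 and 513 cpm at 100 cells. The libraries labelled KO were above those labelled WT at each input. *Lefty1* rose by 0.53 ± 0.08 on the log2 scale at 1000 cells (edgeR adjusted p = 3.73e-06) and by 1.01 ± 0.15 at 100 cells (adjusted p = 0.00116).

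*Lefty2* was at 374 and 357 cpm labelled WT against 288 and 255 cpm labelled KO at 1000 cells, and at 349 and 413 against 510 and 475 cpm at 100 cells. The libraries labelled KO were thus the lower ones at 1000 cells and the higher ones at 100 cells. *Lefty2* fell by 0.43 ± 0.06 at 1000 cells (edgeR adjusted p = 2.39e-06). At 100 cells the ratio of 0.33 ± 0.12 fell just short of the threshold (adjusted p = 0.0522), which it passed under 10 of 14 other settings (adjusted p from 2.59e-09 to 0.509). The difference between both ratios, 0.80 ± 0.14, was past the threshold (interaction adjusted p = 0.00291), and *Lefty2* was the only one of the 10 genes for which it was in this fit. Past the threshold, 9.28% of all tested genes had a positive and 7.05% a negative interaction. For *Lefty1* the difference of 0.52 ± 0.20 did not pass (interaction adjusted p = 0.0843), but it did with a minimum of 1 count in any library (adjusted p = 0.00291) and without the first or the second library labelled WT at 100 cells (adjusted p = 0.0444 and 2.93e-06).

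Chromosome 1 as a whole was higher in the libraries labelled KO. Its other 498 genes that averaged 10 cpm or more had a median log2 ratio of 0.55 at 1000 cells and 0.45 at 100 cells, the highest of 20 chromosomes at both inputs. The 42 such genes within 5 Mb of the *Lefty* pair had a median of 0.58 at 1000 cells. At 1000 cells the ratio of *Lefty1* was 0.02 below the chromosome median, with 47.0% of the chromosome's genes lower, and that of *Lefty2* was 0.98 below it, with 2.4% of the genes lower. At 100 cells *Lefty1* was 0.56 above the median, with 91.6% of the genes lower, and *Lefty2* 0.12 below it. The part of the chromosome-wide difference in the values of both genes was not tested.

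Within a library, the *Lefty1* count divided by the *Lefty2* count depends neither on depth nor on scaling. It was 0.528 and 0.487 in the libraries labelled WT and 1.05 and 0.927 in those labelled KO at 1000 cells, and 0.580 and 0.686 against 0.969 and 1.08 at 100 cells. All 4 libraries labelled KO were above all 4 labelled WT. Libraries of one genotype may share clones across the inputs, so the 4 are not known to be independent. The share of other gene pairs that lie apart in this way was not counted. Both genes summed to 572 and 531 cpm labelled WT and to 589 and 491 cpm labelled KO at 1000 cells, where the groups overlapped, and to 551 and 697 against 1003.5 and 988 cpm at 100 cells. The paralogs share sequence: 17.9% of the 50-base windows of *Lefty1* and 12% of those of *Lefty2* also occur in another gene, and fragments that matched both were discarded.

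**Figure D3:**
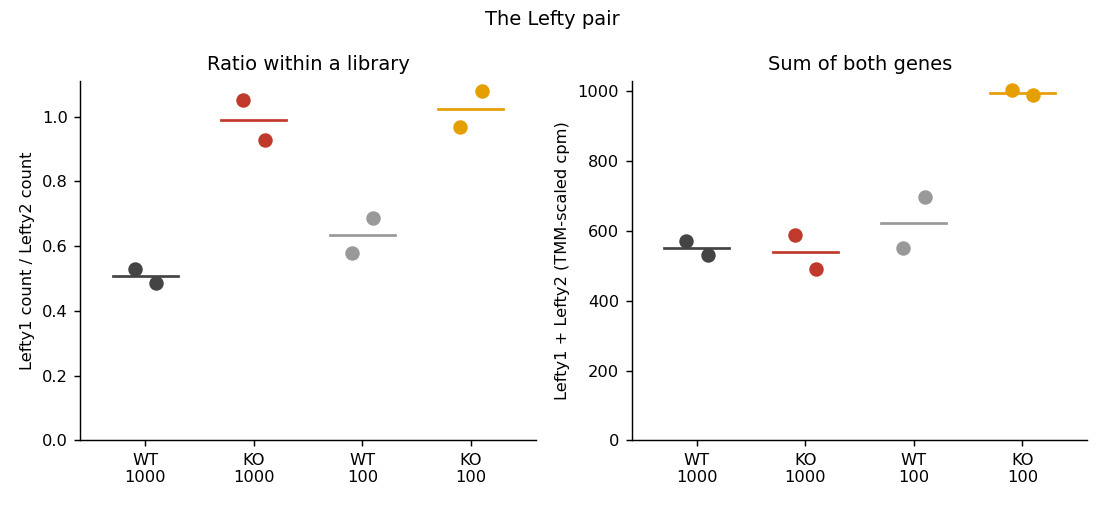
*Lefty1* count divided by *Lefty2* count (left) and the sum of both genes in TMM-scaled cpm (right) in each library, with lines at the mean of 2; both vertical axes start at 0. The count ratio is 0.487 to 0.686 in libraries labelled WT and 0.927 to 1.08 in those labelled KO, and the sum stands out at 100 cells in those labelled KO.

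In the libraries labelled WT, input made no difference that passed the test for any of the 10 genes. With edgeR 0 were called between 100 and 1000 cells, with 1 at an unadjusted p under 0.05, and DESeq2, the edgeR exact test and limma-voom also called 0. Of all tested genes 0.149% were higher and 0.678% lower at 100 cells. With either library labelled WT at 100 cells left out, some of the 10 were called, and calls over all tested genes rose as well. In the libraries labelled KO, 2 of the 10 were higher and 2 lower at 100 cells, against 27.3% and 24.8% of all tested genes. *Lefty1* and *Lefty2* were the higher ones, by 0.91 ± 0.07 and 0.86 ± 0.06 on the log2 scale (edgeR adjusted p = 1.94e-13 and 1.05e-14). *Id2* and *Tdgf1* were lower by small amounts (-0.32 ± 0.09 and -0.12 ± 0.05, adjusted p = 0.00366 and 0.0235). Both of the latter calls were lost in one edgeR fit of all 8 libraries (adjusted p = 0.0852 and 0.249). That of *Id2* was also lost with DESeq2 (adjusted p = 0.0607). That of *Tdgf1* was also lost in edgeR with at least 10 counts in every library (0.0945) and when thinned (0.0568). Both calls also depended on the library left out. Without the second library labelled KO at 1000 cells the log2 ratios of *Id2* and *Tdgf1* were -0.21 and -0.098. Without the first or the second labelled KO at 100 cells that of *Tdgf1* was -0.142 or -0.1. *Bmp4*, *Id1* and *Id3* had log2 ratios of 0.05 to 0.15 between the inputs in these libraries and were not called.

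Levels of different genes were compared per kilobase of exon (FPKM, TMM-scaled). At 1000 cells labelled WT, *Tdgf1* led with 675 ± 18.2 FPKM (SD, n = 2), followed by *Lefty2* (140 ± 4.64), *Lefty1* (106 ± 9.46), *Id3* (53.8 ± 3.35) and *Id1* (35.8 ± 0.697). *Nodal* (17.9 ± 2.11) and *Id2* (17.4 ± 0.866) did not differ beyond their spread, and *Bmp4* (13.4 ± 0.0654), *Smad7* (4.90 ± 0.392) and *Smad6* (0.376 ± 0.0462) followed. In the libraries labelled KO at the same input *Lefty1* (153 ± 26.1) stood before *Lefty2* (104 ± 9.02), and *Smad7* (6.74 ± 0.446) before *Bmp4* (4.21 ± 0.159). *Id3*, *Id1* and *Id2*, which lay well apart when labelled WT, were at 18.8 ± 2.52, 17.6 ± 3.44 and 15.1 ± 1.48 FPKM, with neighbours inside each other's spread. At 100 cells the order of the 10 genes was the same for each genotype as at 1000 cells, with *Lefty2* and *Lefty1* inside each other's spread in those labelled WT. cDNA synthesis in this kit starts at the poly(A) tail, so a level per kilobase of exon is approximate.

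Over the 8 libraries, the genes whose log2(cpm + 1) followed *Id1* most closely among 8367 others that averaged 10 cpm or more were *Pycrl* (Pearson r = 0.997), *Trub2* (0.996) and *Lrpap1* (0.994). For *Lefty1* they were *Shmt2* (0.994), *Socs3* (0.992) and *Aars* (0.991). These are descriptions over 8 points that fall into 4 groups and share their libraries.

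The other genes of the pathways did not move in one direction. Of 72 listed, 58 were tested, of which 13 were higher and 9 lower at 1000 cells in the libraries labelled KO, and 6 higher and 12 lower at 100 cells. These are 37.9% and 31% of the 58, where 41.5% and 34.2% of all tested genes were called in either direction, so the shares were not above the background. Their median log2 ratio was 0.08 and 0.07. At both inputs with the same sign, 6 were lower and 1 was higher, which is 10.3% and 1.72% of the 58 beside 9.24% and 7.52% of all tested genes. *Foxh1*, the NODAL pathway's DNA-binding partner, was at 56.8 ± 1.11 cpm labelled WT and 21 ± 2.18 cpm labelled KO at 1000 cells (SD, n = 2), and at 53.7 ± 2.47 against 26.9 ± 1.41 cpm at 100 cells. It fell by 1.44 ± 0.10 and 1.04 ± 0.13 on the log2 scale (edgeR adjusted p = 1.22e-12 and 0.000454).

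*Gdf3*, a NODAL-related ligand, fell by 0.46 ± 0.06 at 1000 cells and by 1.05 ± 0.13 at 100 cells (edgeR adjusted p = 4.57e-07 and 0.000442). *Ppm1a*, a phosphatase that acts on SMADs, fell by 0.31 ± 0.07 and 0.52 ± 0.11 (adjusted p = 0.000754 and 0.00566). Below 10 cpm, and named after their values were seen, were *Pcsk6*, a convertase of NODAL-type precursors (log2 ratios -0.69 and -0.78), and *Bmp7*, a BMP ligand. *Bmp7* was the one that rose, by 1.31 ± 0.25 and 1.41 ± 0.23 (adjusted p = 6.96e-05 and 0.00206), from 2.34 ± 0.279 to 5.78 ± 0.73 cpm at 1000 cells.

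Among the receptors, SMADs and their partners, *Foxh1* was the only gene called at both inputs. Of 11 tested receptors and co-receptors, 4 were higher and 1 lower at 1000 cells, with a median of 0.30 and a range of -0.67 to 1.55, and 1 was higher and 1 lower at 100 cells, which is 45.5% and 18.2% of them beside the 41.5% and 34.2% of all tested genes. The most counted BMP receptor, *Bmpr1a*, had log2 ratios of 0.01 ± 0.08 and -0.46 ± 0.21 (edgeR adjusted p = 0.920 and 0.112), whereas *Bmpr2* rose by 0.58 ± 0.09 at 1000 cells (adjusted p = 9.60e-06). Of 11 tested SMADs and partners, 5 were higher and 2 lower at 1000 cells, or 63.6%. *Smad1*, *Smad2* and *Smad4* were among the higher, by 0.44 ± 0.13, 0.57 ± 0.08 and 0.23 ± 0.08 (adjusted p = 0.00695, 4.38e-07 and 0.0276), and *Smad5* was not called (0.20 ± 0.11, adjusted p = 0.150). At 100 cells *Foxh1* was the only one of these 11 to pass, or 9.1%. Of 7 extracellular antagonists and proteases, 1 was lower at 1000 cells and 3 at 100 cells (14.3% and 42.9%). Of 8 intracellular inhibitors, 2 were higher and 1 lower at 1000 cells and 1 each at 100 cells (37.5% and 25%). Counts at 100 cells depended on the library left out. Fewer of the 58 were called without either library labelled KO, and more without either labelled WT. Calls over all tested genes moved the same way.

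**Figure D4:**
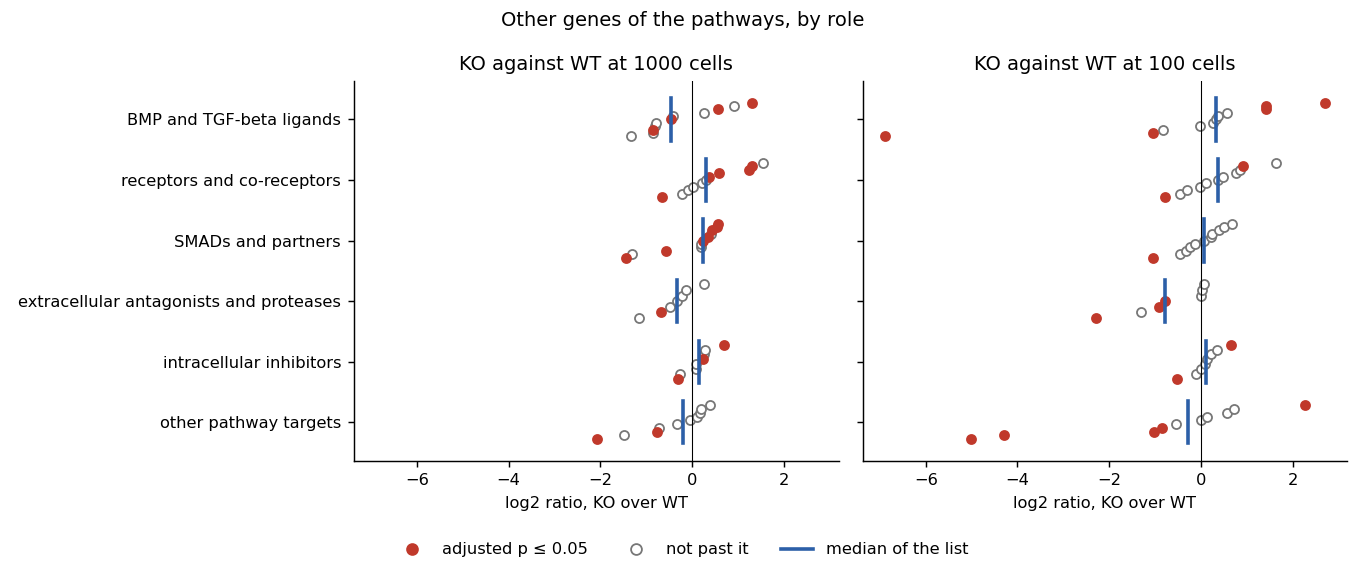
Log2 ratio of libraries labelled KO over those labelled WT for the 58 other pathway genes tested, in 6 rows by role, at 1000 cells (left) and 100 cells (right). Red points passed an adjusted p of 0.05 and blue bars are list medians; points lie on both sides of 0, with more of the red ones to the right at 1000 cells (13 of 22) and to the left at 100 cells (12 of 18).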

How the data were processed

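RNA was measured in 8 SMARTer Ultra Low libraries of mouse ES cells. The authors removed rRNA reads with Bowtie2 (2.1.0), mapped the rest to mm10 with TopHat2 (2.0.10) and counted fragments per GENCODE M4 gene without regard to strand with HTSeq (0.6.1). Fragments that matched several genes or positions were discarded, and removal of PCR duplicates was not stated. The deposited values are raw counts per gene, and all 8 columns were used.

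Symbols were matched for 42425 of 43309 genes through GENCODE M21 without version numbers. Genes with at least 10 counts in any library were tested (16816) with edgeR (4.0.16) quasi-likelihood on TMM-scaled counts, genotype within input and input within genotype on 4 libraries each, and their interaction on all 8. Benjamini-Hochberg adjustment ran over all tested genes, with a threshold of 0.05. DESeq2 (1.42.0) and limma (3.58.1) served as alternatives, beside other filters, scalings, a replicate block, thinning and each library left out. p-values measure the spread between the 2 labelled replicates of a group, whose clones are not identified. Replicates differed by more than sampling noise in each group and were counted separately. With 9666985 to 16686525 counts per library, counting error matters mainly for *Smad6*.

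The 10 genes and the pathway and marker lists were chosen with earlier results of these data known. All 10 were described, and other pathway genes were named where they passed the test at both inputs with one sign and averaged 10 cpm or more, together with the receptors and SMADs. Some genes that are in these counts are not reported here by name. The 3 genes most like *Id1* and *Lefty1* were taken by Pearson r. A gene was taken as near a *Lefty* gene when its start lay within 5 Mb of the start of that gene. Promoter windows came from RefSeq (GRCm38.p6).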

Additional observations from a re-analysis of the deposited data

Results flagged for a closer look

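The labelled genotype ratio differed between the inputs, by the interaction term of the edgeR fit on all 8 libraries, for *Lefty2* and *Gdf3*. For *Lefty2* the log2 ratio was 0.80 ± 0.14 higher at 100 than at 1000 cells (adjusted p = 0.00291), with a range of 0.69 to 0.93 when each library was left out. For *Gdf3* it was -0.55 ± 0.14 (adjusted p = 0.0179), the level in the libraries labelled KO being 252 ± 0.144 cpm (SD, n = 2) at 1000 cells and 186 ± 8.25 cpm at 100 cells, against 345 ± 18.4 and 373 ± 52.0 cpm in those labelled WT. Cell number and PCR cycle number changed together. The libraries labelled KO at 100 cells also carried the glial and neuronal transcripts given above, whose part in either value was not tested. Of these markers, 8 of 9 neuronal and 8 of 10 glial ones had a positive interaction past the threshold, beside 9.28% of all tested genes.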

How the results depend on the processing

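Of 729 recomputed log2 ratios of the 10 genes, 657 kept their direction and side of the threshold, 10 lost and 35 gained a call, and 27 changed direction, 0 of which had been called. The directions of the genes called between the labelled genotypes held under all alternatives run. The replicate numbers are not stated to mark a shared clone. With the replicate number as a block, 9, 7, 0, 4 and 1 of the 10 genes were called in the 2 genotype comparisons, the input comparisons in WT and KO, and the interaction, against 7, 6, 0, 4 and 1 without it. The calls gained were those of *Id2* and *Tdgf1* at 1000 cells and *Lefty2* at 100 cells. The replicate differences correlated by 0.154, 0.169, -0.124 and -0.039 over 8366 genes in the first 4 comparisons, and a crossed pairing in WT, added after the data were seen, called 0 of the 10 and 2 of the other pathway genes.

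With a log2 ratio above 1 also asked for, 4 of the 10 and 5 of the 58 other genes were called at 1000 cells, 11 of the 58 at 100 cells, 0 of the 58 between inputs in WT, 0 of the 10 and 10 of the 58 between inputs in KO, and 0 and 3 in the interaction. Of all 16816 tested genes, this setting called 1634 at 1000 cells and 2696 at 100 cells. It called 29 and 2717 of them between inputs in WT and KO, and 1177 in the interaction. Other settings that moved a count by over 1.5 times were these. A minimum of 10 counts in every library left 11 of the others at 100 cells, and 4298 of all 12295 genes then tested. In WT between inputs, the exact test, a minimum of 1 count and one fit of all 8 libraries each called 2 of the others and thinning 0, against 1. Of all tested genes these called 434, 463, 676 and 10, against 139. In KO between inputs, one fit of all 8 libraries called 2 of the 10 and 23 of the others, and DESeq2 19 of the others, against 4 and 37. Of all tested genes these called 6075 and 5641, against 8753. In the interaction, a minimum of 1 count called 3 of the 10 and 9 of the others, thinning 2 of the 10, and DESeq2 3 of the others, against 1 and 5. Of all tested genes these called 3316, 2225 and 1935, against 2745. The cause was not tested.

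With each library left out, counts ran from 6 to 32 for the others at 100 cells (18 with all), from 0 to 3 of the 10 and 0 to 14 of the others between inputs in WT, and from 1 to 4 of the 10 and 0 to 19 of the others in the interaction. The lowest counts at 100 cells came without a library labelled KO, and the highest in each of these without one labelled WT at 100 cells. Calls over all tested genes moved in the same directions.

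Directions changed only for ratios that had not been called. When thinned to the smallest total, *Smad6* was at -0.038 between genotypes at 1000 cells and *Smad7* at 0.017 between inputs in WT. In the interaction, *Id3* was at 0.016 by library size alone, 0.015 with at least 10 counts in every library and 0.012 when thinned, and *Smad6* at 0.026, 0.021 and 0.226 in the same settings and at 0.006 with at least 1 count. With a library left out, *Smad6* ranged from -0.24 to 0.42 at 1000 cells, from -0.56 to 0.51 at 100 cells and from -0.30 to 0.77 between inputs in KO. Between inputs in WT, *Id2* ranged from -0.06 to 0.44, *Smad7* from -0.11 to 0.07 and *Lefty2* from -0.053 to 0.139. In KO, *Id1* ranged from -0.044 to 0.364 and *Id3* from -0.072 to 0.207. In the interaction, *Id1* ranged from -0.327 to 0.063, *Id3* from -0.15 to 0.11, *Smad6* from -0.64 to 0.43 and *Tdgf1* from -0.00 to 0.065.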
